A study of Arabidopsis thaliana with 14 samples.

Results

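The 9 genes described here encode the proteins by which Arabidopsis perceives gibberellin (GA) and turns that perception into growth: the 5 DELLA repressors GAI, RGA, RGL1, RGL2 and RGL3, the 3 receptors GID1A, GID1B and GID1C, and the F-box protein SLY1. They were chosen by name, and every region of both deposited region lists that overlapped a gene body by at least 1 bp was assigned to that gene. They are 9 of 27444 nuclear protein-coding genes, and they held 18 of 52588 regions at 25 °C and 10 of 50290 regions at 16 °C.

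Chromatin immunoprecipitation followed by sequencing was carried out on Col-0 shoots from which the leaves had been taken off, labelled as shoot apical meristem with leaves of an early stage. All plants were grown for 5 weeks at 16 °C in short days (light for 8 h, darkness for 16 h) and were harvested either 1 day after transfer to 25 °C or while still at 16 °C. Antibodies against trimethylated lysine 36 of histone H3 (H3K36me3) were used on 4 samples per temperature and antibodies against H3 on 3 per temperature. By the study's methods, each biological replicate was 0.5 g of tissue and was split into an aliquot for either antibody. For H3K36me3 replicate A at 25 °C the antibody field names H3 but the title gives H3K36me3, and a pooled list does not let this replicate be viewed alone. No mutant or transgenic line is part of these samples.

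Bioactive GA binds a GID1 receptor, and the receptor then closes over the hormone and takes hold of a DELLA protein. The DELLA protein is handed to the SCF ubiquitin ligase that contains SLY1 and is degraded, which releases the transcription factors that the DELLA protein had held back. Growth at warm ambient temperature and flowering under short days both depend on GA in Arabidopsis. H3K36me3 is laid down in the bodies of transcribed genes by methyltransferases that travel with RNA polymerase II.

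Both lists pool the replicates of a temperature, so a value below is 1 value per temperature, with no spread between replicates and no test, and the read depth per sample is unknown. A gene with no region is a gene in which coverage did not reach the calling level, which was a height of 179.3 at 25 °C and 179.4 at 16 °C, and the mark itself may still be there. In whole tissue, fewer cells with the mark and less of the mark per cell cannot be told apart. Regions on organelle chromosomes held 28.0% of the estimated total signal at 25 °C and 36.9% at 16 °C. That total was the mean coverage implied by the height p-values, times the length of the reference genome. The remaining share, taken as nuclear, was 1.14 times larger at 25 °C. Leaving out 25 °C regions lower than 204.8, the lowest 16 °C height times that ratio, took away none of the 18 regions, and the part of this shift in widths and heights was not tested. Among the shoot marker genes STM, KNAT1, CLV1, CLV3, WUS and ATML1, regions touched 3 at 25 °C, which were CLV1, WUS and ATML1. At 16 °C regions also touched 3, which were STM, KNAT1 and CLV1. Among the root marker genes PLT1, WOX5, RHD6 and COBL9, they touched 0 at 25 °C and 2 at 16 °C. Among the leaf marker genes RBCS1A, LHCB1.1, LHCB6 and PSAF, they touched 2 at 25 °C and 3 at 16 °C. Of all nuclear protein-coding genes, they touched 59.5% at 25 °C and 56.0% at 16 °C. The leaf marker genes had a mean cover of 26.7% at 25 °C and 27.5% at 16 °C, above the 4.03% and 1.18% of the shoot marker genes, in tissue whose leaves had been taken off. LHCB6, of the light-harvesting antenna, was covered over 54.3% at 25 °C and 30.3% at 16 °C, and PSAF, a photosystem I subunit, over 52.5% and 70.3%. RBCS1A, in contrast, had 0% at 25 °C and 9.27% at 16 °C, and LHCB1.1 had 0% at both. The part of leaf cells in the values of the 9 genes was not tested.

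The DELLA proteins are named after a short motif, which lies near the amino terminus in the part that the GA-bound receptor grips. Its codons are shown for the 5 genes because they lay differently to the regions of GAI and RGA. The sequences come from the RefSeq annotation of TAIR10.1, are written in the direction of the gene, and have the 15 bases of the 5 codons at the place of the motif in capitals. In RGL1 and RGL3 these codons spell a variant of the motif that differs in 1 residue.
GAI (chr1:5149477-5149527, plus strand): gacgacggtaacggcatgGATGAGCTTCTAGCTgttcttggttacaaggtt
RGA (chr2:257183-257233, minus strand): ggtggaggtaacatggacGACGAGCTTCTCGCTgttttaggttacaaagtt
RGL1 (chr1:24748402-24748452, plus strand): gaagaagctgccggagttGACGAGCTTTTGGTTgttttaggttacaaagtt
RGL2 (chr3:821118-821168, minus strand): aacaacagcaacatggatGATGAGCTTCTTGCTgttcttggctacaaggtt
RGL3 (chr5:5765756-5765806, minus strand): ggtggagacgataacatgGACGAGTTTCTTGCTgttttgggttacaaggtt

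The motif codons of GAI and RGL2 shared 14 of 15 bases, those of GAI and RGA 13 of 15, and those of GAI and RGL1 11 of 15. In GAI all 51 bases shown lay inside a region at 25 °C and 0 at 16 °C. In RGA the regions took in 0 of the 51 bases at 25 °C, against 13 at 16 °C, and none of the 15 capital bases was covered at either temperature. The 13 bases lay in a 16 °C region of 50 bp with a height of 189.9, near the calling level of 179.4. Only 2.50% of nuclear regions at 16 °C were lower. None of the bases shown for the 3 RGL genes was covered.

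The 3 receptor genes share their layout, with a first exon that ends 39 bases after the start of translation. This short coding stretch is shown because the region at its place differed among the 3 genes, and the start codon is in capitals.
GID1A (chr3:1430682-1430720, plus strand): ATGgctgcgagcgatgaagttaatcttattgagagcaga
GID1B (chr3:23289717-23289755, plus strand): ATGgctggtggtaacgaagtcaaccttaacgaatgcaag
GID1C (chr5:9629254-9629292, plus strand): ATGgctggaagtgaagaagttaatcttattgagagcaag

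Over these 39 bases GID1A and GID1C had 33 bases in common, GID1B and GID1C 29, and GID1A and GID1B 25. The stretch was wholly covered in GID1A at both temperatures, wholly covered in GID1C at 25 °C with 0 bases covered at 16 °C, and not covered in GID1B at either.

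Of the 9 genes, 8 were marked at 25 °C, against 59.5% of all nuclear protein-coding genes, and 5 were marked at 16 °C, against 56.0%. RGL1, RGL2 and GID1B were marked at 25 °C and not at 16 °C, a change seen in 9.32% of all genes, and 0 of the 9 were marked at 16 °C only. GAI, RGA, GID1A, GID1C and SLY1 were marked in both lists, and RGL3 in neither. With 9 genes and pooled lists these counts describe the genes and allow no test.

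The covered percent is the share of a gene body, from the annotated start to the annotated end of the gene, that lies inside regions. It was larger at 25 °C in 7 of the 9 genes, against 47.3% of all genes, and smaller in 1, GID1A, against 17.2% of all genes. With only the stronger 50% of the regions of each list it was larger at 25 °C in 4 and smaller in 2, and the median change was 0. The shares of all genes under that setting are not given here, and 47.3% and 17.2% belong to the full lists. The median change, 25 °C minus 16 °C, was 9.04 percentage points over the 9 genes, where it was 0 over all genes and 7.83 over the genes marked in both lists. The mean change was 10.9 points over the 9 genes and 4.70 over all genes. The mean covered percent of the 9 genes was 29.0% at 25 °C and 18.1% at 16 °C, and that of all genes 18.7% and 14.0%. Summed over the 9 gene bodies, 5500 of 19644 bp were covered at 25 °C, against 3460 bp at 16 °C.

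**Figure D1:**
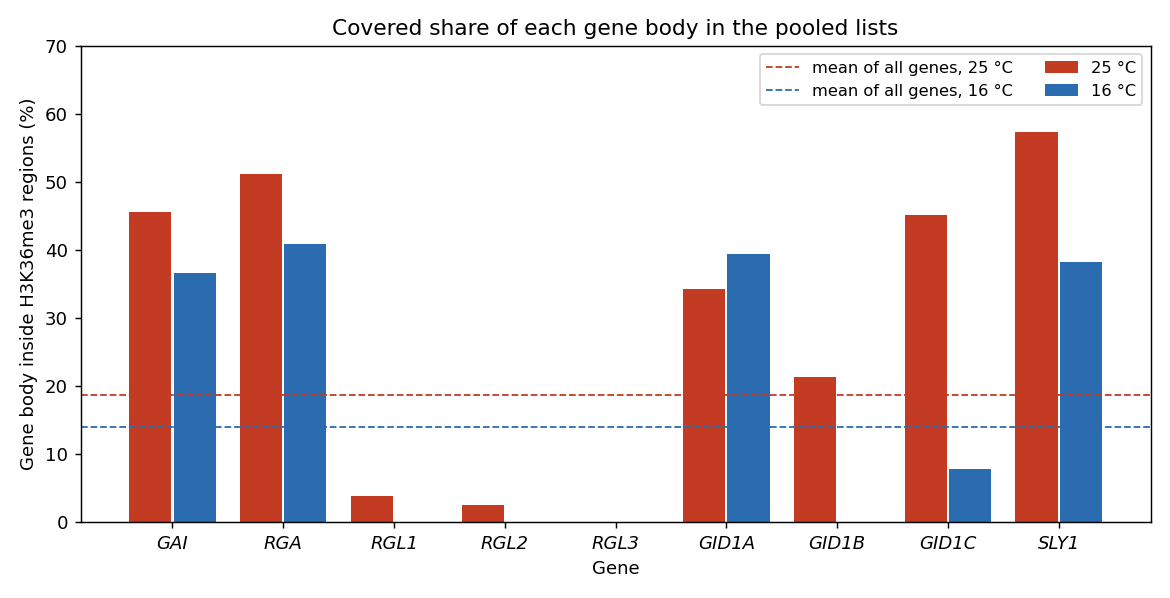
Share of each gene body inside H3K36me3 regions, in percent, for the 9 genes, with 25 °C (left bar) and 16 °C (right bar) and dashed lines at the mean of all nuclear protein-coding genes. Each bar is 1 pooled list, so there are no error bars; the right bar is the higher one only in GID1A, and RGL3 has no bar.

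GAI and RGA, the DELLA repressors known for holding back stem growth, were the strongly covered genes of their family. GAI (AT1G14920, chr1:5148982-5151415, plus strand, 2434 bp) had 3 regions at 25 °C that covered 45.6% of the gene, against 2 regions at 16 °C that covered 36.6%. RGA (AT2G01570, chr2:255247-257568, minus strand, 2322 bp) had 4 regions at 25 °C that covered 51.2%, against 3 at 16 °C that covered 40.9%. The change was 9.04 points in GAI and 10.3 points in RGA, yet their place among all genes was nearly the same in both lists. At 25 °C, 85.6% of all genes had a lower covered percent than GAI, and at 16 °C 86.8% did. For RGA these shares were 90.9% at 25 °C and 91.2% at 16 °C.

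In both genes the covered stretch reached closer to the gene start at 25 °C. In GAI the first covered base lay 359 bp after the gene start at 25 °C and 559 bp after it at 16 °C, and the last lay 1619 and 1539 bp after it. At 25 °C the first region of GAI took in 73 bp of the 5′ UTR and 507 bp of coding sequence, whereas the 2 regions at 16 °C lay wholly in coding sequence. In RGA the first covered base lay 178 bp after the start at 25 °C, within the 5′ UTR, and 298 bp after it at 16 °C, within coding sequence. At 16 °C that base belonged to a low region of 50 bp, with a height of 189.9. The next 16 °C region of RGA began 708 bp after the start. The first 1000 bp of RGA held 662 covered bp at 25 °C and 222 bp at 16 °C, while the rest of the gene held 528 bp at 25 °C and 728 bp at 16 °C. The cover of RGA was thus larger at 25 °C in its front part and smaller behind it, and with only the stronger 50% of the regions of each list its change turned to -9.91 points. The same split gave 580 bp at 25 °C, against 351 bp at 16 °C, in the front part of GAI, and 530 bp at 25 °C, against 539 bp at 16 °C, behind it.

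The positions were partly different ones. In GAI 740 bp were covered at both temperatures, 370 bp at 25 °C only and 150 bp at 16 °C only. In RGA 710 bp were covered at both, 480 bp at 25 °C only and 240 bp at 16 °C only. The wide 16 °C region of RGA, 770 bp long, faced 2 regions of 180 and 390 bp at 25 °C, with an uncovered gap between them.

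**Figure D2:**
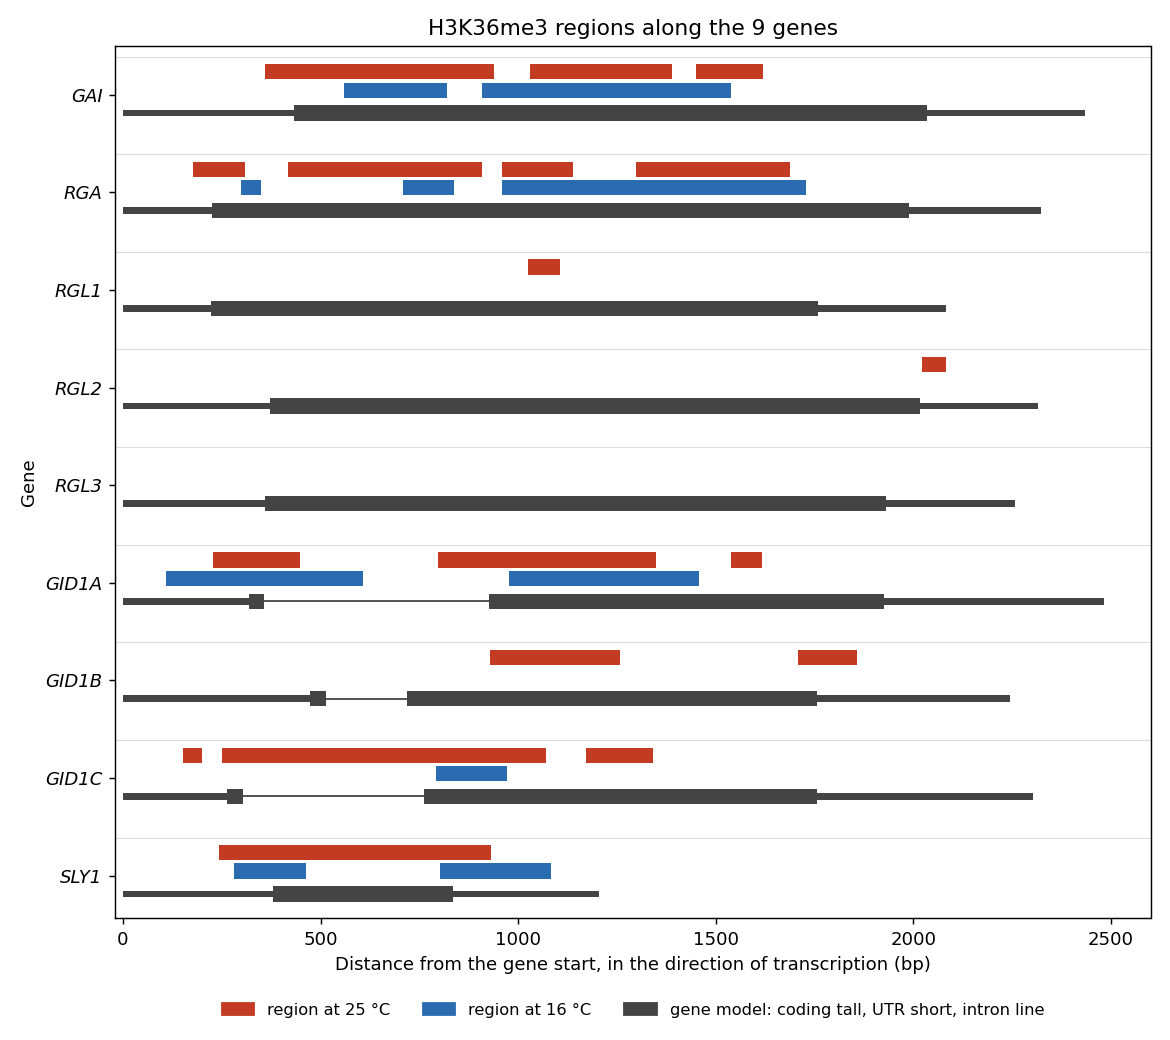
Positions of all H3K36me3 regions along the 9 genes, plotted as distance from the gene start in bp, with 25 °C above 16 °C above the gene model (coding sequence tall, UTR short, intron as a line). Regions of GAI, RGA, GID1C and SLY1 begin closer to the gene start at 25 °C, that of GID1A begins farther from it, and RGL3 has no region.

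Height did not follow cover in these genes. The tallest region of GAI was 576.9 at 25 °C and 625.8 at 16 °C, and that of RGA 459.7 at 25 °C and 485.9 at 16 °C. The mean signal per bp inside the 3 GAI regions at 25 °C was between 325 and 329, against 437 and 444 in the 2 regions at 16 °C. So GAI was covered over more bases with a lower signal per covered base in the 25 °C list. Summed over its regions, the signal of GAI at 25 °C was 0.93 times that at 16 °C, and that of RGA 1.20 times.

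RGL1, RGL2 and RGL3, the remaining DELLA genes, which are known for roles in seeds, flowers and stress responses, had little or no cover. RGL1 (AT1G66350, chr1:24748105-24750186, plus strand) had 1 region of 80 bp at 25 °C, with a height of 213.7, which covered 3.84% of the gene, and none at 16 °C. It lay inside the coding sequence, 1026 bp after the gene start, and is shown whole as the 1 stretch of this gene that was called, with its middle 10 bases in capitals.
RGL1 region at 25 °C (chr1:24749131-24749210, plus strand): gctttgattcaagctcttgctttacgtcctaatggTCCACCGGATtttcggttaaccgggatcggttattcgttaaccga

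RGL2 (AT3G03450, chr3:819337-821652, minus strand) had 1 region of 60 bp at 25 °C, with a height of 248.7, and none at 16 °C. This region covered 2.59% of the gene and lay wholly in the 3′ UTR, 2022 bp after the gene start, unlike those of GAI, RGA and RGL1. RGL3 (AT5G17490, chr5:5763989-5766246, minus strand) had no region in either list and none within 1000 bp of either end. Outside the gene, a region of 60 bp stood 555 bp past the end of RGL1 at 16 °C, in no annotated gene. The RGL1 and RGL2 regions were low ones in the 25 °C list, where 14.4% of nuclear regions were lower than that of RGL1 and 33.7% lower than that of RGL2. Their −log10 p was 19.2 and 30.9, against 219.5 for the tallest region of GAI. A gene marked by such a region is marked only by the count, and both calls hung on regions under 100 bp.

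The 5 DELLA genes and SLY1 have no intron. Among these 6 genes, 5 overlapped regions at 25 °C, against 46.0% of all 2675 single-exon genes of 1000 to 3000 bp, and 3 did at 16 °C, against 40.3%. The mean covered percent of all those genes was 13.5% at 25 °C and 10.2% at 16 °C. The mean of the 5 DELLA genes was 20.7% at 25 °C and 15.5% at 16 °C, and GAI and RGA made up nearly all of it. RGA at both temperatures, GAI at neither, lay above the 90th percentile of those single-exon genes, which was 48.8% at 25 °C and 39.0% at 16 °C. The family therefore split into a pair with much cover and a trio with almost none. The coding sequences of GAI and RGA were identical at 82.6% of aligned bases, that of GAI at between 68.3% and 70.9% with the 3 RGL genes, and those of RGL2 and RGL3 at 77.4%. A link between this identity and the cover was not tested.

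The 3 GA receptors, which are soluble proteins related to carboxylesterases and act in part in place of each other, differed from one another. GID1C (AT5G27320, chr5:9628990-9631291, plus strand, 2302 bp) had 3 regions at 25 °C that covered 45.2% of the gene, against 1 region at 16 °C that covered 7.82%. GID1B (AT3G63010, chr3:23289243-23291486, plus strand, 2244 bp) had 2 regions at 25 °C that covered 21.4%, and none at 16 °C. GID1A (AT3G05120, chr3:1430363-1432844, plus strand, 2482 bp) had 3 regions at 25 °C that covered 34.2%, against 2 at 16 °C that covered 39.5%. The change was thus 37.4 points in GID1C, 21.4 in GID1B and -5.24 in GID1A. Of all genes, 99.0% had a smaller change than GID1C, 92.4% a smaller one than GID1B and 7.86% a smaller one than GID1A. The order of cover was GID1C, GID1A and GID1B at 25 °C, and GID1A, GID1C and GID1B at 16 °C, an order that could not be set against a spread.

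The widest region of all 9 genes was in GID1C at 25 °C, with 820 bp. It took in the last 13 bp of the 5′ UTR, the whole first coding stretch shown above and the whole intron of 458 bp, and ended 310 bp into the second coding stretch. The only 16 °C region of GID1C, 180 bp long and wholly in coding sequence, lay inside that stretch, so 180 bp were covered at both temperatures, 860 bp at 25 °C only and 0 bp at 16 °C only. The tallest region of GID1C had a height of 504.0 at 25 °C and 306.6 at 16 °C. A small region of 50 bp lay in the 5′ UTR at 25 °C, and its height of 208.5 was the lowest of the 18 regions of the 9 genes at 25 °C.

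In GID1A, as in GAI and RGA, most of the covered bases of each list were also covered in the other. The cover of GID1A was not larger at 25 °C. Its first region ran from 228 to 448 bp after the gene start at 25 °C and from 108 to 608 bp after it at 16 °C. Its tallest region had a height of 447.1 at 25 °C and 662.1 at 16 °C, the highest of all 28 regions. Of its gene body 590 bp were covered at both temperatures, 260 bp at 25 °C only and 390 bp at 16 °C only. The bases covered at 16 °C only lay mostly in the 5′ UTR and intron, where the 5′ UTR held 91 covered bp at 25 °C, against 211 bp at 16 °C, and the intron 218 bp at 25 °C, against 250 bp at 16 °C. The coding sequence held 541 covered bp at 25 °C and 519 bp at 16 °C, so that over coding sequence alone GID1A was 2.12 points higher at 25 °C. Before the gene start, the nearest region stood 953 bp away at 25 °C and 43 bp away at 16 °C, each of 140 bp.

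GID1B had its 2 regions well behind the gene start, at 928 and 1708 bp after it. The first lay in coding sequence, and the second took in 48 bp of coding sequence and 102 bp of the 3′ UTR. Their heights, 355.4 and 365.6, were above the median of 292.0 of nuclear regions at 25 °C, so GID1B was not marked by a weak region, as RGL1 and RGL2 were. A further region of 140 bp stood 335 bp past the end of GID1B at 25 °C, in no annotated gene. Over the first 1000 bp GID1B held only 72 covered bp at 25 °C, against 799 bp in GID1C and 422 bp in GID1A. GID1A and GID1C were both covered from the first exon on at 25 °C. At 16 °C the first covered base lay 108 bp after the gene start in GID1A and 791 bp in GID1C. GID1A and GID1C shared 84.2% of aligned coding bases, and GID1B shared 71.4% with GID1A and 72.5% with GID1C. A link between sequence and cover was not tested.

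**Figure D3:**
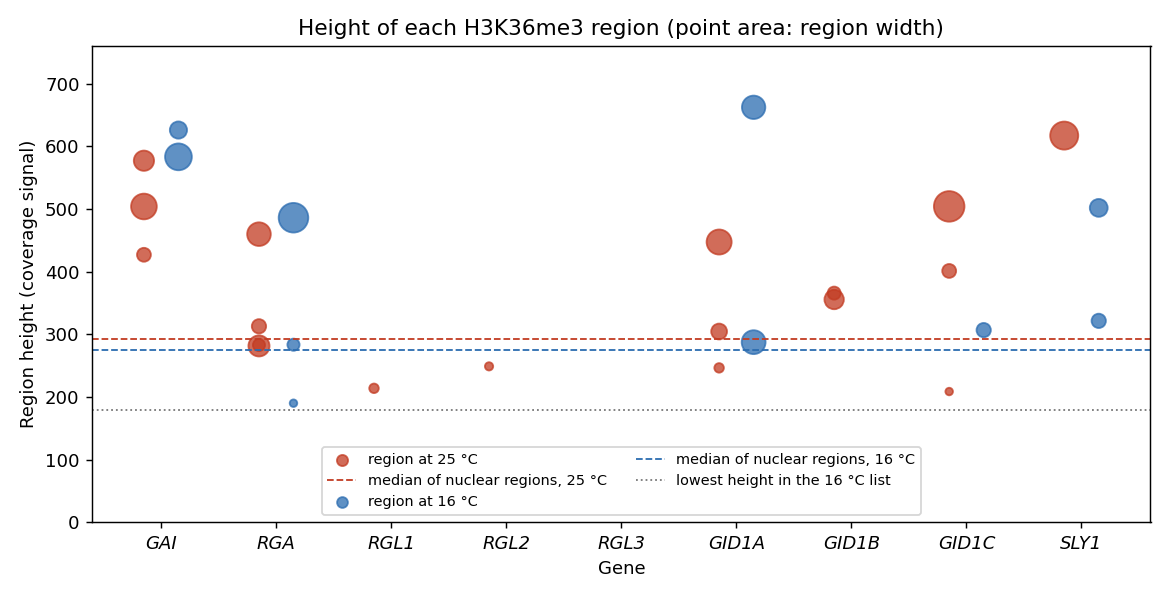
Height of each H3K36me3 region in the 9 genes, in units of the coverage signal, with 25 °C left of 16 °C and the point area proportional to region width; dashed lines are the medians of nuclear regions and the dotted line the lowest height of the 16 °C list. The tallest regions were in SLY1 (616.9) and GAI (576.9) at 25 °C, and in GID1A (662.1) and GAI (625.8) at 16 °C.

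All 3 receptor genes were marked at 25 °C, against 49.1% of the 2374 genes with 2 exons and a length of 1000 to 3000 bp. At 16 °C 2 receptor genes were marked, against 44.9% of those genes. The mean covered percent of the receptors was 33.6% at 25 °C and 15.8% at 16 °C, against 15.3% and 11.7% of those genes. All 3 genes contributed to the receptor mean at 25 °C, and GID1A alone made up most of it at 16 °C.

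SLY1 (AT4G24210, chr4:12563279-12564482, plus strand), the F-box protein that brings DELLA proteins to the ubiquitin ligase, is the shortest of the 9 genes, with 1204 bp. It had the highest covered percent of the 9 at 25 °C, 57.3%, against 38.2% at 16 °C. At 25 °C 1 region of 690 bp took in the whole coding sequence of 456 bp, with 137 bp of the 5′ UTR and 97 bp of the 3′ UTR. At 16 °C there were 2 regions of 180 and 280 bp with a gap of 340 bp between them, and they covered 116 bp of the coding sequence. The 1 region at 25 °C thus spanned the gap between the regions at 16 °C. It did not reach as far as the second of these, which ended 1082 bp after the gene start, against 932 bp at 25 °C. The tallest region was 616.9 at 25 °C and 501.6 at 16 °C. Of all genes, 95.2% had a lower covered percent than SLY1 at 25 °C and 88.5% at 16 °C.

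Among the 5 genes marked in both lists, the first covered base was nearer to the gene start at 25 °C in GAI, RGA, GID1C and SLY1 and farther in GID1A. Of the 13775 genes marked in both lists, it was nearer at 25 °C in 53.1% and farther in 38.6%. Over the 9 genes, coding sequence was covered over 35.4% at 25 °C and 22.6% at 16 °C, 5′ UTRs over 13.5% and 10.1%, and 3′ UTRs over 7.11% and 6.78%. Only the 3 receptor genes have an intron, and the intron of GID1C alone held more covered bases at 25 °C, 458 bp against 0 bp at 16 °C. That of GID1A held 218 bp at 25 °C, against 250 bp at 16 °C, and that of GID1B 0 bp at both. Of the 5500 covered bp at 25 °C 4155 lay in coding sequence, as did 2655 of the 3460 at 16 °C. None of the 9 genes overlaps another annotated gene, and no stretch of 50 bases of any of them occurs a second time in the reference, so that no region had to be shared with a neighbour or an identical copy. Mapping with mismatches between GAI and RGA or GID1A and GID1C was not tested.

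For each gene with regions in both lists, the gene with the most similar pattern was sought among 18787 genes that stand clear of every other annotated gene and are at least 500 bp long. Likeness was the Jaccard index, the covered positions in common divided by those covered in either, over the first 1500 bp and both lists. The most similar to GAI was FAD5, a fatty acid desaturase (0.86), to RGA RBL12, a rhomboid-like protein (0.73), and to GID1A VSR3, a vacuolar sorting receptor (0.71). To GID1C it was AT1G70150 (0.76) and to SLY1 AT1G09150 (0.75). Over the whole gene, RBL12 had 33.4% at 25 °C and 42.6% at 16 °C, unlike RGA, and VSR3 40.6% and 30.2%, unlike GID1A. FAD5, AT1G70150 and AT1G09150 had more cover at 25 °C, as did GAI, GID1C and SLY1. Between 932 and 2103 of the 18787 genes reached an index of 0.5 with 1 of the 5, so such patterns were not particular to these genes.

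The other genes of the pathway were grouped by role. Of 19 genes that act with or on DELLA proteins, the 25 °C list marked 14, against 59.5% of all genes, and the 16 °C list 14, against 56.0%. BRG1 was only in the 25 °C list and BRG2 only in the 16 °C list. Cover was larger at 25 °C in 14, against 47.3% of all genes, and smaller in 1, against 17.2%. Their median change over all 19, unmarked ones included, was 8.61 points, where it was 0 over all genes and 7.83 over the genes marked in both lists. ASK1, the adaptor of SCF ligases, was covered over 71.1% at 25 °C and 58.1% at 16 °C, and RBX1, their RING subunit, over 53.8% and 48.6%. ASK2, a second adaptor, had the largest difference of this group, with 58.7% at 25 °C and 20.6% at 16 °C. BRG1, a RING protein that binds DELLA proteins, had 10.3% at 25 °C and 0% at 16 °C, and its relative BRG2 0% at 25 °C and 5.11% at 16 °C. ASK1 and RBX1 sit in the same ligase as SLY1, but they were named because they had the highest mean cover of this list. Their cover therefore does not describe the ligase as a whole.

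Of 14 GA biosynthesis genes the 25 °C list marked 6, against 59.5% of all genes, and the 16 °C list 5, against 56.0%. Their median cover was 0% in both. The highest mean cover was that of KO and KAO1. KO, which oxidises ent-kaurene, had 38.0% at 25 °C and 16.5% at 16 °C, and KAO1, the next oxidase, 38.3% and 11.7%. KAO2, a second copy of that oxidase, went the other way, with 8.14% at 25 °C and 17.2% at 16 °C. Of the late steps, 7 of 9 GA20OX and GA3OX genes had no region at either temperature, GA3OX4 had 2.71% at 25 °C and 0% at 16 °C, and GA20OX5 0% at 25 °C and 2.14% at 16 °C. CPS, the first enzyme of the pathway, had 0.70% at 25 °C and 0% at 16 °C. None of the 7 GA2OX genes, whose enzymes inactivate GA, overlapped a region in either list.

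The DELLA genes belong to the GRAS family and the receptors to the carboxylesterase family. Of 25 other GRAS genes, SCL3 of the partners included, the 25 °C list marked 19 and the 16 °C list 20, with a median change of 4.78 points, 17 larger and 3 smaller at 25 °C. HAM2, which acts in meristems, had 57.8% at 25 °C and 40.4% at 16 °C, and SCL23 47.7% and 38.2%, so that HAM2 alone among them lay above RGA at 25 °C. The largest positive difference was that of AT5G66770, 45.6% at 25 °C and 24.1% at 16 °C, the largest negative one that of SCL13, 9.33% and 16.1%, and AT3G49950 was marked at 16 °C only, over 2.72%. Of 17 other carboxylesterase genes the 25 °C list marked 8 and the 16 °C list 7, with a median change of 0 points, 7 larger and 2 smaller at 25 °C. CXE12 had 94.5% at 25 °C and 29.4% at 16 °C, and CXE5 47.3% and 73.3%. CXE18 with 3.16% and CXE20 with 2.95% were marked at 25 °C only, and AT1G19190 with 3.46% at 16 °C only. The difference of GID1C, 37.4 points, was thus smaller than that of CXE12, 65.1 points.

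**Figure D4:**
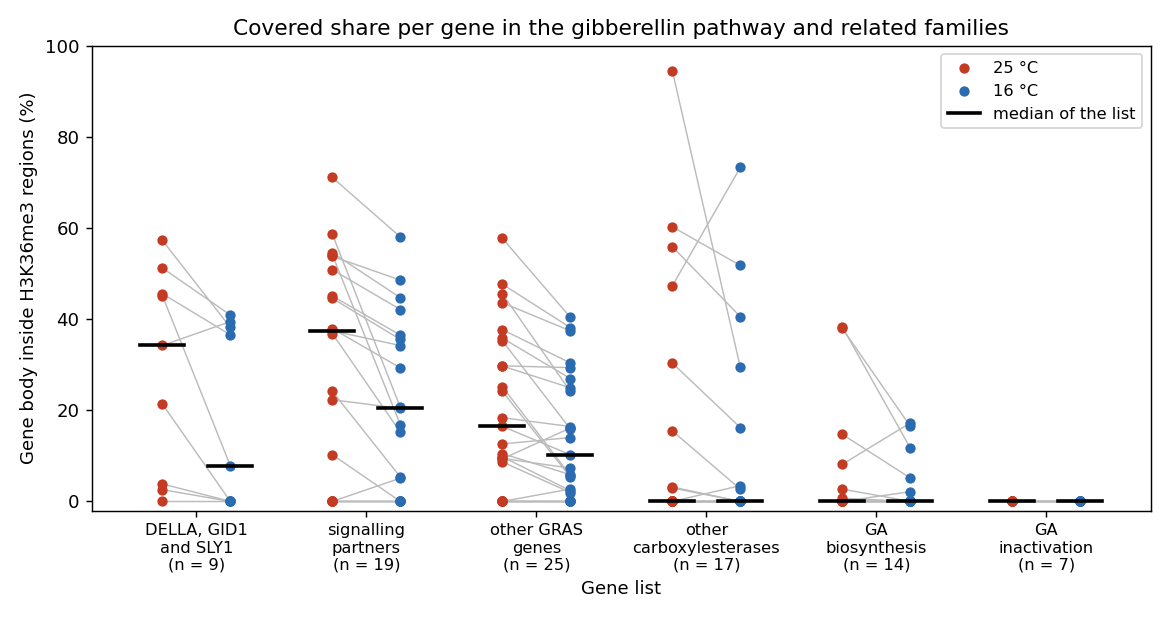
Share of each gene body inside H3K36me3 regions, in percent, for 6 gene lists, with 25 °C left of 16 °C, a line joining the values of a gene, and black bars at the list medians. The median of the 9 DELLA, GID1 and SLY1 genes was 34.2% at 25 °C and 7.82% at 16 °C, that of the 19 signalling partners 37.5% and 20.4%, and those of the biosynthesis and inactivation genes 0% at both.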

How the data were processed

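H3K36me3 and H3 were immunoprecipitated from shoot tissue at 25 °C and 16 °C. Reads were mapped to TAIR10 by the authors with Bowtie (study's methods) or Bowtie2 (submitters' processing notes), without a version. For region calling the authors extended reads to 150 bp and ran Dpeak of DANPOS2, and 1 list was deposited per temperature, with its replicates pooled. A use of the H3 libraries as background in that step is not given in the sources. Each deposited region has a height and a total, which are coverage signal, as well as a p-value for the height, written as −log10.

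Gene models were those of RefSeq for TAIR10.1, and no region ended beyond its chromosome there. Overlaps were computed with Python 3.11.15, pandas 2.3.3 and NumPy 2.4.6, and identities with Biopython 1.88. They were tested on simulated regions. Depth per sample is unknown, and heights only rank or describe regions. The 9 genes and the lists were chosen with earlier results of these data known. Named were the 9 genes and, in each list, the 2 most covered, the largest rise and fall, and genes marked at 1 temperature only where these were at most 3. The 9 alternatives changed the regions kept, the overlap or the gene part. Columns for single samples were not used.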

Additional observations from a re-analysis of the deposited data

How the results depend on the processing

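The 5 summary results were recomputed under 9 alternatives, which kept stronger, wider or equally many regions, raised the 25 °C height limit to 204.8, asked for the region centre or 50 bp, or used the first 1000 bp or the coding exons. Marked genes numbered between 6 and 8 at 25 °C, and 5 at 16 °C under all of them. Shares over all genes are not given for the alternatives. With the stronger 50% of the regions of each list, cover was larger at 25 °C in 4 genes and smaller in 2, the median change was 0, and RGA turned to -9.91 points. Over coding exons cover was smaller at 25 °C in 0 genes, and GID1A turned to 2.12 points. Over the first 1000 bp the median change was 7.20 points. The cause was not tested. GAI, GID1B, GID1C and SLY1 were above 0 in all 9 alternatives, with 9.04 to 22.9, 7.20 to 35.1, 32.8 to 61.9 and 19.1 to 74.6 points. The alternatives with equally many regions, the 204.8 limit, the region centre or 50 bp left the change of every gene as it was. These therefore add no check of direction. RGL1 kept its region in 5 and RGL2 in 4. No paired analysis was possible because the replicates of a temperature were pooled in its list, and leaving out a replicate could not be run for the same reason. Depth per sample being unknown, a gene without a region is below the calling level and not shown to lack the mark.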
